A study of Homo sapiens with 43 samples.

Results

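NCI-H2887 is a lung squamous cell carcinoma line whose map of H3K27 acetylation (H3K27ac) was set against the maps of 5 further lines of the same tumour type, HCC2450, SQ-1, Calu-1, EBC-1 and HCC2279. The members are the 43480 H3K27ac peaks of NCI-H2887 on chromosomes 1 to 22 and X, of 650700 peaks in the 27 deposited lists. Within them, 6956 peaks shared no base with a peak of the 5 lines, and conversely 1398 of the 11893 regions held by all 5 lines contained no NCI-H2887 peak. NCI-H2887 was selected on measured values of the same lists, because it resembled the 5 lines least by the Jaccard index, and because its list had the most peaks and the least covered length. The line was chosen by those values, so every comparison of these 6 lists is a description and none was tested.

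The series mapped H3K27ac in 13 unmodified squamous lines, and the transcription factors Sox2, Brn2 and p63 in some of them, by chromatin immunoprecipitation and sequencing (ChIP-seq). All 6 lines were labelled as lung squamous cell carcinoma lines, were kept in RPMI medium with fetal bovine serum, carried no labelled treatment or genetic change, and were profiled with the same antibody product. Each of the 6 has 1 library and 1 peak list, so the spread between repeat libraries of these lines is unknown. The 6 were proposed as lines without acetylation at TP63, the gene of the squamous lineage factor p63. No annotation of the files' genome build was used, so neither that label nor lineage markers were checked, and positions on hg19 stand in place of gene names.

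H3K27ac is an acetyl mark added to histone H3 by the CBP family of acetyltransferases. It lies on the nucleosomes flanking active promoters and active enhancers, and enhancers with the mark differ far more between cell types than promoters do. Long stretches of closely spaced acetylated elements are often found near genes that define a cell's identity. The mark is therefore used to compare the regulatory state of tumour lines, here across lines of 1 histological type.

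The list of NCI-H2887 was made of many short peaks. It held 43480 peaks, against 36555 in HCC2450, 40325 in SQ-1, 40337 in Calu-1, 36825 in EBC-1 and 39523 in HCC2279. These peaks covered 35.4 Mb in NCI-H2887, against 73.7 Mb in HCC2450, 50.2 Mb in SQ-1, 72.9 Mb in Calu-1, 51.1 Mb in EBC-1 and 71.3 Mb in HCC2279. NCI-H2887 thus stood above the other 5 in number and below them in length. The median width was 530 bp in NCI-H2887, against 1645, 836, 1333, 958 and 1398 bp in HCC2450, SQ-1, Calu-1, EBC-1 and HCC2279. Peaks under 500 bp made up 47.3% of the NCI-H2887 list, against 2.18% in HCC2450, 18.1% in SQ-1, 2.48% in Calu-1, 18.8% in EBC-1 and 1.88% in HCC2279. Narrow peaks were not confined to NCI-H2887 among the 6, since SQ-1 and EBC-1 lay between it and the 3 lines with wide peaks. Peaks wider than 5 kb numbered 237 in NCI-H2887 and 656 to 1676 in the 5 lines. The shortest listed peak was 94 bp in NCI-H2887 and 179 to 282 bp in the 5 lines, so the smallest feature that the lists contain was not the same.

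The short peaks of NCI-H2887 lay close together. The gap to the next peak was under 500 bp for 41.9% of neighbouring peaks in NCI-H2887, against 13.6% in HCC2450, 30.2% in SQ-1, 18.9% in Calu-1, 24.4% in EBC-1 and 17.3% in HCC2279. When peaks within 1 kb of each other were joined, NCI-H2887 had 24147 regions, against 30675 in HCC2450, 26588 in SQ-1, 31332 in Calu-1, 26975 in EBC-1 and 31507 in HCC2279. The order in peak number was therefore turned round: the list with the most peaks gave the fewest joined regions. The same held with joining within 3 kb (22547 regions in NCI-H2887, 23950 to 28687 in the 5 lines), whereas SQ-1 had fewer at the longer distance customary for super-enhancers (18123 in NCI-H2887, 17641 in SQ-1). The covered length stayed lowest in NCI-H2887 after joining within 1 kb, at 38.4 Mb against 52.9 to 75.1 Mb in the 5 lines. The median width of the joined regions was 1290 bp in NCI-H2887 and 1516 to 1994 bp in the 5 lines, a smaller gap than between single peaks.

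**Figure D1:**
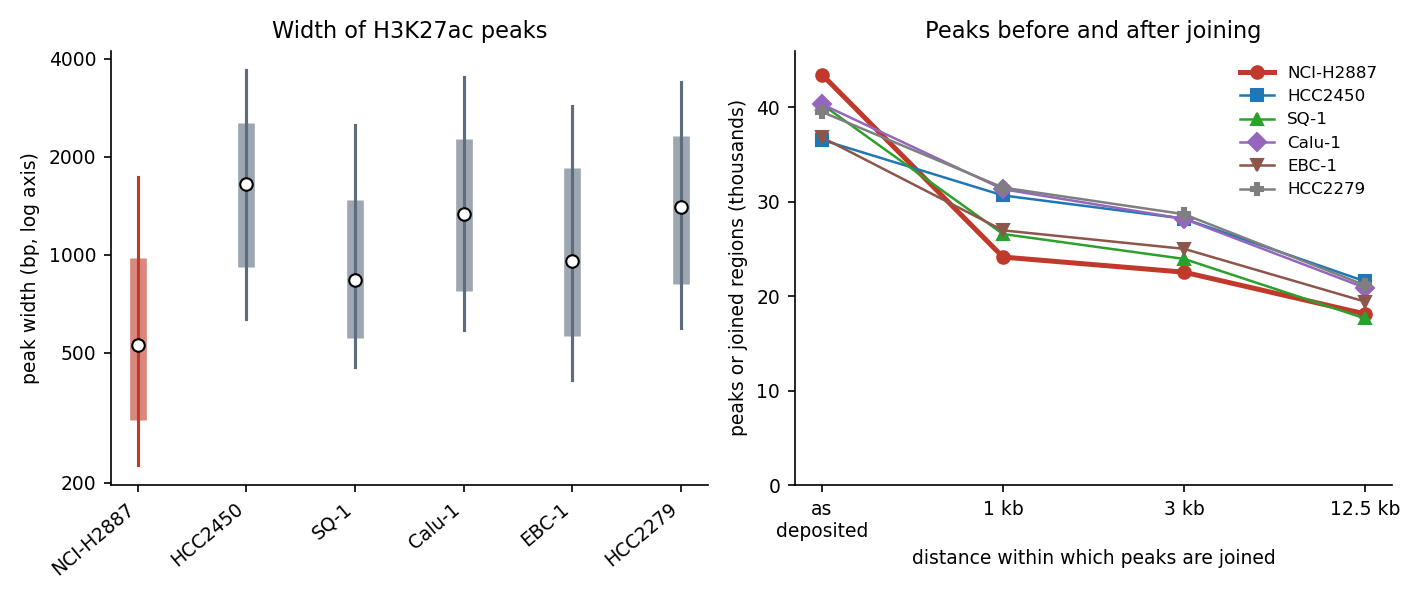
Left, width of H3K27ac peaks in each of the 6 lists on a log axis in bp (circle, median; thick bar, 25th to 75th percentile; thin line, 10th to 90th percentile). Right, number of peaks as deposited and of regions after joining peaks within 3 rising distances. NCI-H2887 (red) has the lowest median width, 530 bp, and passes from the most peaks, 43480, to the fewest regions, 24147, with joining within 1 kb.

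The splitting was also seen at regions that every line held. Merging the peaks of the 6 lists gave 76993 regions, of which 10490 had a peak of each line. NCI-H2887 had 2 or more peaks in 62.3% of these common regions, against 14.9% in HCC2450, 43.6% in SQ-1, 19.2% in Calu-1, 30.5% in EBC-1 and 18.8% in HCC2279. NCI-H2887 peaks averaged 2.02 per common region, against 1.18 to 1.62 in the 5 lines. They covered 50.03% of the length of the common regions, against 75.3% in HCC2450, 56.5% in SQ-1, 72.5% in Calu-1, 60.6% in EBC-1 and 78.5% in HCC2279. The same regions were thus listed in more and shorter pieces in NCI-H2887. Peak lists give no depth, so how deeply each library was sequenced is unknown.

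**Figure D2:**
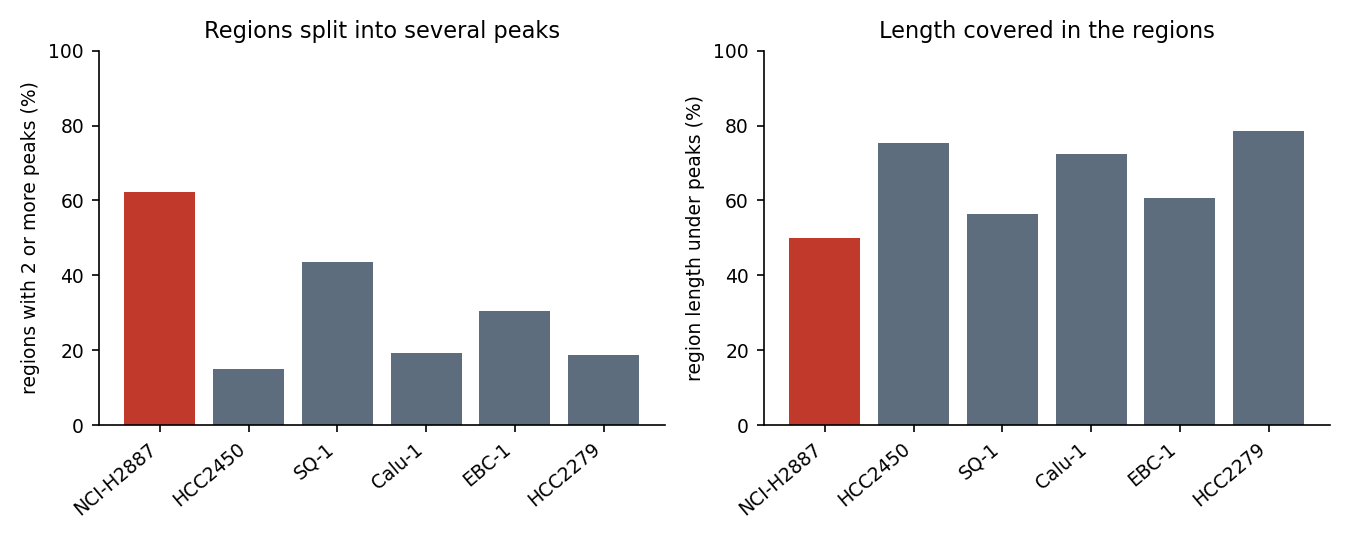
The 10490 regions with a peak in each of the 6 lines. Left, percent of the regions in which a line has 2 or more peaks; right, percent of the summed region length under the line's peaks. NCI-H2887 (red) has the highest share of split regions, 62.3%, and the lowest covered share, 50.03%.

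Similarity was measured by the Jaccard index, the length shared by 2 lists divided by their combined length. NCI-H2887 had an index of 0.266 with HCC2450, 0.287 with SQ-1, 0.275 with Calu-1, 0.341 with EBC-1 and 0.322 with HCC2279. The 10 pairs among the 5 lines had indices of 0.279 to 0.427. The mean index with the other 5 was 0.299 for NCI-H2887, against 0.325 for HCC2450, 0.329 for SQ-1, 0.365 for Calu-1, 0.354 for EBC-1 and 0.368 for HCC2279. NCI-H2887 was the lowest, and HCC2450 and SQ-1 came closest to it. The 2 ranges overlapped, since NCI-H2887 was nearer to EBC-1 than HCC2450 was to SQ-1 (0.279). The index falls when a short list meets a long one. Of the covered length of NCI-H2887, 64.8% lay inside HCC2450 peaks, 54.0% inside SQ-1, 66.1% inside Calu-1, 62.2% inside EBC-1 and 73.5% inside HCC2279 peaks. In the other direction 31.1% to 43.1% of the length of a line lay inside NCI-H2887 peaks.

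The lists that had no part in choosing NCI-H2887 gave the following indices. HCC2814 reached 0.317 and KNS62 0.304, which were above the indices of NCI-H2887 with HCC2450, SQ-1 and Calu-1. The index was 0.286 with HARA, 0.279 with HCC95 and 0.248 with LC-1/SQSF. LK2 had 0.267 and 0.215 in its repeat libraries, and NCI-H520 had 0.207 and 0.240. NCI-H2887 was thus not uniformly nearer to the 5 lines than to the 7 others. HCC2814 was also the line of these 7 with the shortest covered length outside LK2, at 31.6 Mb, and the index moves with list length.

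The peaks of NCI-H2887 were next ordered by the number of the 5 lines that shared them. Peaks shared with all 5 lines numbered 15943, or 36.7% of the list. They had a median width of 846 bp and a median score of 482, where the score is the authors' own value per peak and ranks peaks only within a list. Peaks in none of the 5 numbered 6956 (16.0%, Wilson 95% interval 15.7 to 16.3, counting error only), with a median width of 370 bp and a median score of 94.9. Those shared with exactly 1 line numbered 4317, with 387 bp and a score of 103, so the peaks just outside the definition looked much like those inside it. Width and score increased with each further line. The same order was found in each of the 5 lines, where peaks in no other line had median widths of 598 to 973 bp and peaks in all others 1039 to 2349 bp.

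At the level of merged regions, NCI-H2887-only regions were 9.03% of the 76993, and regions of all 5 lines without NCI-H2887 were 1.82%. As the comparison with each other line as the odd one out shows, the number of private peaks was not unusual for these lists. NCI-H2887 had 6956, against 8204 in HCC2450, 5714 in SQ-1, 6600 in Calu-1, 5137 in EBC-1 and 6486 in HCC2279. As a share of the list this was 16.0% in NCI-H2887, against 22.4%, 14.2%, 16.4%, 13.9% and 16.4% in HCC2450, SQ-1, Calu-1, EBC-1 and HCC2279. NCI-H2887 lay inside the range of the 5 by number and by share. The private peaks covered 3.64 Mb in NCI-H2887, against 4.11 to 10.98 Mb in the 5 lines. As a share of the list's covered length this was 10.3% in NCI-H2887, inside the 8.04% to 14.9% of the 5 lines. Of the NCI-H2887-only peaks, 5574 lay more than 1 kb and 4180 more than 5 kb from any peak of the 5 lines, and the median distance was 8.82 kb, against 5.32 to 12.8 kb for the private peaks of the 5. After joining within 1 kb, 3681 private regions were left, and 3269 within 3 kb. Private peaks also came in groups, with 602 clusters of 3 or more when joined at the distance customary for super-enhancers in NCI-H2887 and 210 to 431 in the 5 lines. Pieces of a split region count as separate peaks here, and their part in this count was not tested. Clusters of any size, single peaks included, numbered 4248 in NCI-H2887, inside the 3780 to 6016 of the 5 lines.

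The regions that NCI-H2887 lacked were more unusual in size than in number. Regions held by the other 5 and missing in 1 line numbered 1398 for NCI-H2887, against 828 for HCC2450, 1530 for SQ-1, 315 for Calu-1, 516 for EBC-1 and 167 for HCC2279. This was 11.8% (11.2 to 12.3) of the regions of the other 5 for NCI-H2887, against 7.28% for HCC2450, 12.7% for SQ-1, 2.90% for Calu-1, 4.68% for EBC-1 and 1.56% for HCC2279. NCI-H2887 and SQ-1 were the 2 lines with the most missing regions. The missing regions had a median width of 3730 bp for NCI-H2887, against 3150, 2294, 2224, 3062 and 3158 bp for HCC2450, SQ-1, Calu-1, EBC-1 and HCC2279. Those wider than 5 kb numbered 407 of 1398 for NCI-H2887, 156 of 828 for HCC2450 and 99 of 1530 for SQ-1. They numbered 22 of 315 for Calu-1, 131 of 516 for EBC-1 and 37 of 167 for HCC2279. The sets differ in size, so these counts do not compare directly. In NCI-H2887 the missing regions were wider than the regions that it held (3730 against 3123 bp), as they also were in HCC2450 (3150 against 2941 bp) and HCC2279 (3158 against 2933 bp). In SQ-1, Calu-1 and EBC-1 the missing regions were the narrower ones. Of the 1398 missing regions, 1200 had no NCI-H2887 peak within 5 kb. Leaving out HCC2450 or EBC-1 from the 5 gave 2188 and 2194 missing regions, over 1.5 times as many. This loosens the definition, since fewer lines must then hold a region.

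**Figure D3:**
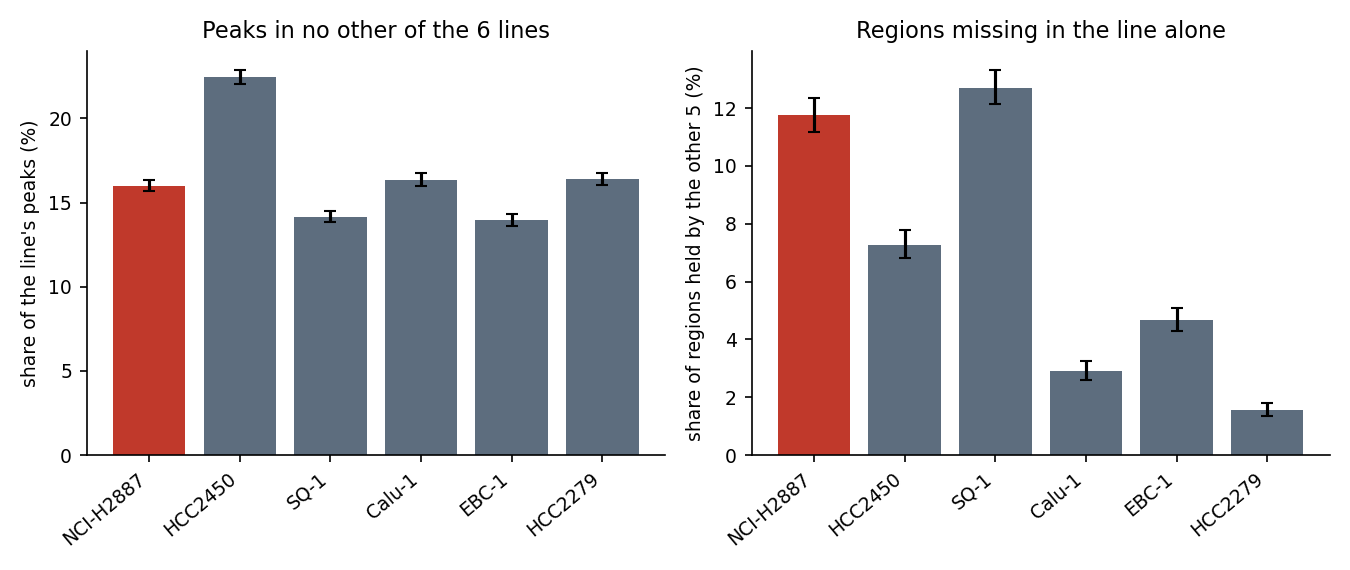
Each of the 6 lines in turn against the other 5. Left, percent of a line's peaks that share no base with a peak of the others; right, percent of the regions held by all the others that contain no peak of the line (bars, share; error bars, Wilson 95% interval, counting error only). NCI-H2887 (red) has 16.0% private peaks and lacks 11.8% of the regions of the other 5.

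Whether the peaks found in NCI-H2887 alone of the 6 lines were acetylated elsewhere was asked in the 7 lines whose lists had no part in the choice. Of the 6956 peaks, 35.2% (34.1 to 36.3) overlapped a peak of any of the 7 lines and 4509 overlapped none. The private peaks of the 5 lines gave 17.9% to 37.5%, highest in EBC-1. Shares by line were 14.2% in HARA (13.4 to 15.1), 13.2% in LC-1/SQSF, 10.7% in HCC95, 15.8% in KNS62 and 4.89% in HCC2814. Among these 5, the share exceeded that of every comparator's private peaks only in HARA, where the comparators reached 11.6%. In LK2 it was 8.90% and 5.62% in the repeat libraries (mean 7.26%), and in NCI-H520 10.0% and 11.2% (mean 10.6%). The private peaks of the 5 lines averaged 1.79% to 5.07% in LK2 and 3.06% to 7.02% in NCI-H520. NCI-H2887 was thus above all 5 in HARA, LK2 and NCI-H520, and below EBC-1 in the other 4 lines. A higher share was also found over whole lists: all NCI-H2887 peaks overlapped HARA in 59.1%, against 42.9% to 51.4% for all peaks of the 5 lines. Over whole lists the shares were 35.5% in LK2, against 25.6% to 31.0% for the 5 lines, and 42.7% in NCI-H520, against 29.5% to 36.2%. All NCI-H2887 peaks were above those of the 5 lines in the other 4 outside lines too, so the excess was not confined to private peaks. These shares count peaks, so a common region listed as several peaks counts several times. NCI-H2887 had 2 or more peaks in 62.3% of the common regions, against 14.9% to 43.6% in the 5 lines. The effect of this on the shares was not tested. The order of private peaks in LK2 and NCI-H520 was kept when each was cut to its central 200 bp, which gave 6.74% for NCI-H2887 against at most 4.48% for the 5 lines in LK2, and 10.1% against at most 6.55% in NCI-H520.

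LK2 and NCI-H520 are the lines in which the series mapped Brn2, a POU-domain factor of neural cells. Peaks found in LK2 or NCI-H520 and in none of the other 5 outside lines made up 436 of the NCI-H2887-only peaks (6.27%), against 2.33% of all NCI-H2887 peaks. The private peaks of the 5 lines gave 2.31% to 5.06% by the same definition, and all their peaks 1.54% to 2.31%. A rise from all to private peaks was thus found in each of the 6 lines. A larger number, 1294 (18.6%), were found in 1 or more of the other 5 outside lines and in neither LK2 nor NCI-H520. Only 61 peaks (0.877%) were present in all 7 outside lines.

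The regions missing in NCI-H2887 alone showed the opposite order. They held a peak of LK2 in 11.7% and 6.65% by library (mean 9.19%) and of NCI-H520 in 11.02% and 13.1% (mean 12.1%). The regions missing in each of the 5 lines held a peak of LK2 in 17.8% to 53.4%, and of NCI-H520 in 21.4% to 60.4%. All 11893 regions of the other 5 lines held one in 62.0% (LK2) and 68.1% (NCI-H520). The missing regions of NCI-H2887 thus had the lowest share of the 6 in both lines. In KNS62 the share was 60.3% (57.7 to 62.8), in HARA 35.8%, in HCC2814 35.1%, in HCC95 34.6% and in LC-1/SQSF 32.7%, and each was below the lowest value of the 5 lines' own sets (66.1%, 46.3%, 35.9%, 38.2% and 42.8%). The intervals of NCI-H2887 and of that lowest line overlapped for KNS62, HCC2814 and HCC95. All 11893 regions held a peak in 91.6% for KNS62, 84.2% for HARA, 81.0% for HCC2814, 82.5% for HCC95 and 81.5% for LC-1/SQSF. Of the 1398 regions, 768 (54.9%) were found in 1 or more of these 5 outside lines and in neither LK2 nor NCI-H520, and 368 (26.3%) in none of the 7. Wider regions have more chance to meet a peak, and those of NCI-H2887 were the widest of the 6 sets.

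**Figure D4:**
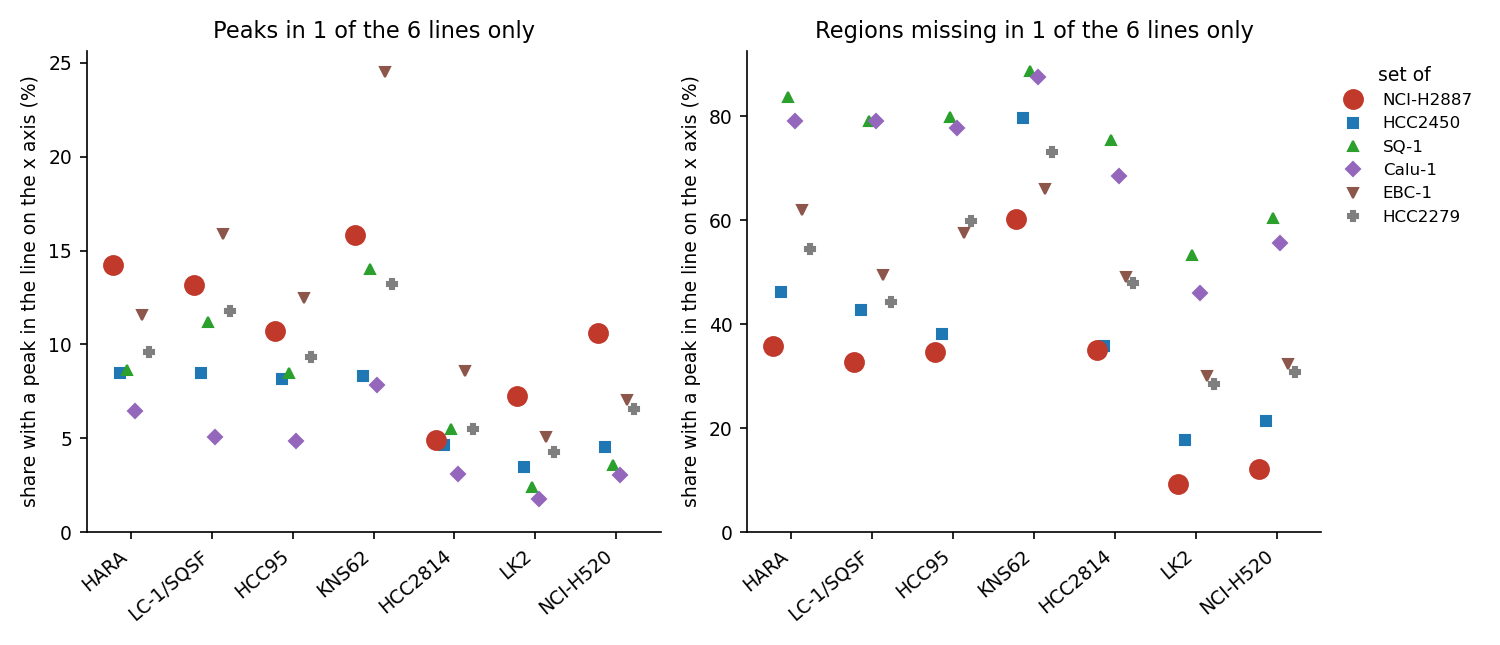
Percent of the peaks found in only 1 of the 6 lines (left) and of the regions missing in only 1 of the 6 lines (right) that overlap an H3K27ac peak in each of 7 lines not used for the choice; LK2 and NCI-H520 are means of 2 libraries. NCI-H2887 (red) is highest for private peaks in HARA, LK2 and NCI-H520, with 14.2%, 7.26% and 10.6%, and lowest for missing regions in all 7 lines.

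Binding sites of Sox2, a factor of stem and progenitor cells often gained in squamous tumours, and of Brn2 and p63 were available from other lines and from derivatives of LK2, but not from NCI-H2887. Sox2 peaks lay in 4.20% of the NCI-H2887-only peaks for HCC95, 3.55% for NCI-H520, 3.38% for KNS62, 2.66% for LK2 and 2.26% for HCC2814. All NCI-H2887 peaks gave 8.25%, 6.58%, 7.37%, 3.14% and 4.95% for the same lines. The private peaks therefore carried fewer of these sites than the list as a whole, with overlapping intervals for LK2 alone, and they were also shorter. A lower Sox2 share in private peaks was also found in each of the 5 lines, so it was not particular to NCI-H2887. For NCI-H520 Sox2 the 5 lines gave 0.875% to 3.52% of private and 5.16% to 6.88% of all peaks. For HCC2814 Sox2 they gave 1.23% to 5.66% of private and 5.23% to 7.08% of all peaks. Brn2 peaks lay in 0.834% (LK2) and 0.216% (NCI-H520) of the NCI-H2887-only peaks, against 3.93% and 1.74% of all NCI-H2887 peaks. The private peaks of the 5 lines gave 0.288% to 0.857% (LK2) and 0.0175% to 0.214% (NCI-H520). All their peaks gave 3.38% to 4.10% (LK2) and 1.46% to 1.84% (NCI-H520). The p63 peaks of LK2_DNp63, a derivative of LK2 named for the p63 isoform of basal cells, lay in 0.589% of the NCI-H2887-only peaks and 1.08% of all its peaks. They lay in 0.530% to 1.28% of the private peaks of the 5 lines and 1.37% to 1.49% of all their peaks.

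Among the missing regions the Sox2 sites differed by line. Sox2 peaks of KNS62 lay in 19.0% (17.0 to 21.1) of the regions that NCI-H2887 lacked, against 12.8% (12.2 to 13.4) of all 11893 regions. For HCC2814 the shares were 11.4% of the missing and 10.0% of all regions, with overlapping intervals. For HCC95 they were 11.9% of the missing and 16.4% of all regions, for NCI-H520 4.58% and 12.53%, and for LK2 3.15% and 4.80%. KNS62 was thus the 1 line of these 5 whose Sox2 sites were more frequent in the missing regions beyond counting error. The missing regions were also wider than the held ones (3730 against 3123 bp), and the effect of width was not tested. Regions missing in HCC2450 alone held KNS62 Sox2 peaks in 26.7% and those missing in HCC2279 alone in 23.4%. A high share was thus not found in NCI-H2887 alone, while SQ-1, Calu-1 and EBC-1 gave 6.93%, 13.3% and 8.14%. Brn2 peaks of NCI-H520 lay in 4 of the 1398 missing regions (0.286%), against 4.53% of all regions. Regions missing in EBC-1 (0.388%), HCC2279 (0.599%) or HCC2450 (0.604%) alone were low as well. Those missing in SQ-1 (2.75%) or Calu-1 (3.17%) alone held more.

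Several of the widest NCI-H2887-only peaks overlapped no peak of the 7 outside lines, as did 64.8% of all NCI-H2887-only peaks. Absence from the outside lines was thus not particular to the widest peaks. The widest spanned 6446 bp at chr18:55094377-55100822, and the next 5394 bp at chr5:151779433-151784826. A peak of 5113 bp lay at chr3:84292853-84297965, directly beside another private peak of 4068 bp at chr3:84288774-84292841, and another of 4644 bp at chr12:121415406-121420049. None of the 7 outside lines had a peak at these 5 positions. In contrast, the peak at chr11:80408694-80413463 (4770 bp) was met in HCC95, KNS62 and HCC2814, and the peak at chr7:27224957-27229570 (4614 bp) in KNS62 and LK2. The peak at chr17:67496303-67500745 (4443 bp) was met in NCI-H520. The other 3 of the 10 widest, at chr9:44533058-44537717, chrX:89713424-89718033 and chr9:43374550-43378764, were in none of the 7. The highest 2 scores of private peaks belonged to chr7:69642091-69645087 and chr11:48113746-48116697, neither met in the 7 lines. Scores tie at 3100 for 1247 NCI-H2887 peaks, 33 of them private, so the score separates the strongest peaks poorly, and only 3 private peaks scored above the tie.

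The largest regions missing in NCI-H2887 were broad domains in some or all of the 5 lines. At chr5:148340352-148371572 the peaks covered 22520 bp in HCC2450, 25491 bp in SQ-1, 29868 bp in Calu-1, 10562 bp in EBC-1 and 23020 bp in HCC2279. Of the outside lines, 4 had a peak there, and HARA had 18504 bp, more than EBC-1. At chr2:191698565-191716332 the 5 lines had 12895 to 16156 bp, and of the 7 outside lines only HCC2814 had a peak, of 1725 bp. At chr5:86407046-86426159 the 5 lines had 10985 to 18874 bp, against 1020 bp in HARA, 2217 bp in KNS62 and 2665 bp in HCC2814. The last 2 domains were therefore rare or small in the outside lines, unlike the first. At chr1:207190863-207209046 the 5 lines had 6108 to 17828 bp, while HARA had 15009 bp and KNS62 14744 bp. At chr10:79259715-79276003, where the 5 lines had 5086 to 16289 bp, NCI-H520 had 16162 bp on average. At chr8:130689988-130712238 the lengths ranged from 2791 bp in HCC2450 to 19741 bp in Calu-1, and LK2 (2132 bp) and NCI-H520 (3927 bp) were the only outside lines with a peak. The other 4 of the 10 largest lay at chr11:12193802-12211934, chr1:222128945-222146541, chr19:43375569-43395266 and chr10:10822033-10841485, with mean lengths of 10026 to 12503 bp in the 5 lines. Of these, all but the one on chromosome 11 were short in EBC-1, at 2395 to 3520 bp.

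To compare stretches of the genome rather than peaks, the covered length was summed in bins of 50 kb. A bin had a peak in at least 1 of the 6 lines in 29987 cases. Bins with a peak in NCI-H2887 and in none of the 5 numbered 1245 (4.15%), and bins with a peak in all 5 and none in NCI-H2887 numbered 928 (3.09%). The other lines as the odd one out gave 705 to 2091 private and 153 to 977 missing bins, so both counts of NCI-H2887 lay inside these ranges. For covered length, the lists were scaled to equal totals, which multiplied NCI-H2887 by 1.67. NCI-H2887 then exceeded the highest of the 5 lines by 5 kb or more in 513 bins (1.71%) and fell short of the lowest by as much in 63 (0.210%). Without scaling the counts were 75 over and 118 under, so the split between them was turned round, from 89.1% over with scaling to 38.9% over without. In the 5 lines the bins over stayed the majority on both scales, at 85.3% or more. Single bins are therefore given below in unscaled kb.

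The bin with the largest excess was chr7:27200001-27250000, with 36.4 kb covered in NCI-H2887, against 1.74 kb in HCC2450, 0 kb in SQ-1, 0.710 kb in Calu-1, 1.71 kb in EBC-1 and 2.71 kb in HCC2279. LK2 averaged 25.8 kb there, and HARA, HCC95 and KNS62 had 11.1 to 12.0 kb. The bin was thus densely covered by peaks in NCI-H2887 and LK2 and hardly covered in the 5 lines. The bin chr12:93750001-93800000 had 20.1 kb in NCI-H2887, against 1.94 to 4.77 kb in the 5 lines. It held 18 NCI-H2887-only peaks, the most of any bin. NCI-H520 had 8.34 kb there, the highest of the outside lines.

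At chr10:114850001-114900000 NCI-H2887 had 18.7 kb, against 0 to 3.98 kb in the 5 lines, with 10.2 kb in NCI-H520 and 7.56 kb in KNS62. At chr19:40400001-40450000 it had 15.9 kb, against 0 to 3.36 kb in the 5 lines, and all 7 outside lines had 0 kb. At chr5:127250001-127300000 it had 15.3 kb, against 0 to 1.86 kb in the 5 lines, and NCI-H520 had 6.13 kb. In these 5 bins the excess was over 12 kb without scaling. Of the other 5 of the 10 bins, chr19:39150001, chr22:46450001, chr20:25200001, chr5:42950001 and chr7:130550001 by their starts, the excess without scaling was 0.544 to 7.45 kb, and their values in the 5 lines were high as well.

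The largest shortfall was at chr12:12950001-13000000, with 1.79 kb in NCI-H2887, against 22.3 kb in HCC2450, 35.2 kb in SQ-1, 28.3 kb in Calu-1, 19.1 kb in EBC-1 and 24.97 kb in HCC2279. HCC95 had 21.4 kb and KNS62 19.5 kb, whereas LK2 and NCI-H520 had 0.320 and 0.497 kb. At chr8:129150001-129200000 NCI-H2887 had 1.82 kb, against 17.3 to 28.8 kb in the 5 lines and at most 6.50 kb in the 7 others. At chr5:86400001-86450000 NCI-H2887 had 0 kb, against 13.5 to 27.8 kb in the 5 lines and at most 2.67 kb in the 7 others. The last 2 bins were low in every line but the 5, so NCI-H2887 was on the side of the outside lines there. NCI-H2887 also had 0 kb at chr11:12100001-12150000, chr4:169500001-169550000, chr8:119000001-119050000 and chr2:27900001-27950000, where the lowest of the 5 lines had 8.21 to 11.4 kb. All 10 shortfalls remained without scaling, at 8.21 to 17.3 kb.

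**Figure D5:**
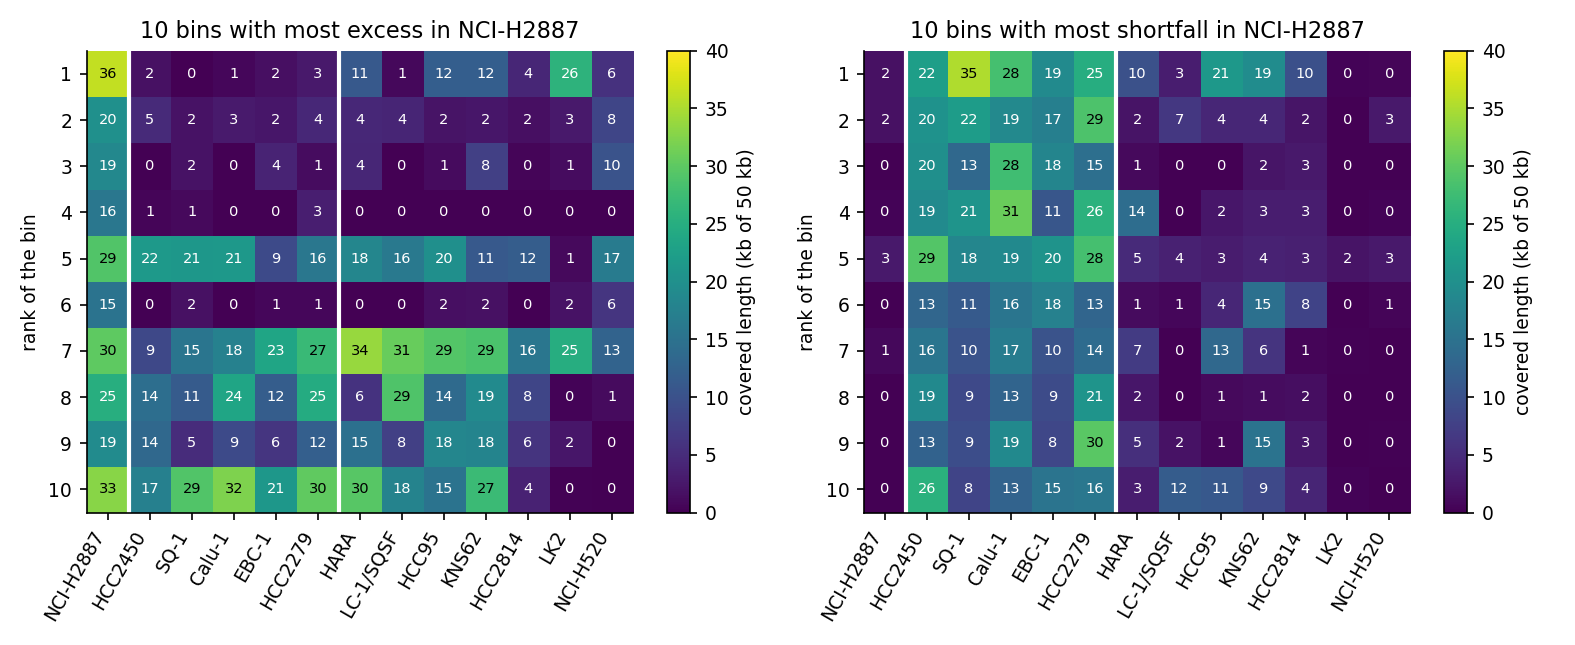
Covered H3K27ac length in kb, without scaling, in the 10 bins of 50 kb with the largest excess (left) and shortfall (right) of NCI-H2887 by scaled length, ordered by rank; columns are NCI-H2887, the 5 lines it was set against and the 7 other lines, with LK2 and NCI-H520 as means of 2 libraries. The first bin of the left panel has 36.4 kb in NCI-H2887 and 25.8 kb in LK2, and the first bin of the right panel 1.79 kb in NCI-H2887 and 19.1 kb or more in the 5 lines.

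The shortfall bins as a group were also described in the outside lines. The 63 bins were defined by low values in NCI-H2887 beside the 5 lines, and their median covered length was 0.670 kb in NCI-H2887, against 10.2 to 16.8 kb in the 5 lines. In the outside lines it was 6.76 kb in KNS62, 1.99 to 3.07 kb in HARA, LC-1/SQSF, HCC95 and HCC2814, 0.360 kb in NCI-H520 and 0 kb in LK2. Among the outside lines, which did not define the bins, LK2 and NCI-H520 were the lowest. In the 513 excess bins the medians were 7.68 kb in NCI-H2887, 1.94 to 3.55 kb in the 5 lines and 1.11 to 4.14 kb in the outside lines, highest in KNS62. LK2 (1.11 kb) and NCI-H520 (1.49 kb) were the lowest outside lines there too. Their low rank was thus not particular to the shortfall bins.

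Groups of private peaks within single bins included some with no listed peak in any other line. The bin chr9:74100001-74150000 held 10 NCI-H2887-only peaks over 5.23 kb, and all 12 other lines had 0 kb. The bin chr2:234650001-234700000 held 10 over 5.01 kb, with 0.617 kb in KNS62 and 0 kb in the other 11. The bin chr9:78950001-79000000 held 9 over 8.45 kb, with 1.07 kb in HCC95 alone of the 12. A different pattern was seen at chr10:5050001-5100000, where 9 NCI-H2887-only peaks lay. This bin had 8.57 kb in NCI-H2887, against 0 to 5.51 kb in the 5 lines, but 29.3 kb in NCI-H520, 21.6 kb in LC-1/SQSF, 18.8 kb in LK2, 16.6 kb in HCC95 and 14.5 kb in HCC2814. At chr9:27350001-27400000, with 10 private peaks and 4.71 kb in NCI-H2887 and 0 kb in each of the 5 lines, HCC95 had 4.88 kb and KNS62 3.87 kb.

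Private peaks were spread over all chromosomes viewed. Their share was highest on chromosome 9, where 494 peaks, 22.6% of the NCI-H2887 peaks there, were private, and lowest on chromosome 19 (9.22%) and chromosome 1 (9.59%). HCC2450 also had a high share on chromosome 9 (29.7%), and the other 4 lines had 11.1% to 17.7%. The stretch of 5 Mb with the most NCI-H2887-only peaks was chr9:40000001-45000000, with 60 peaks and 8 of the excess bins. Next was chr10:5000001-10000000, with 52 private peaks and 6 excess bins. Excess bins were most frequent at chr19:35000001-40000000, with 12, although that stretch held only 20 private peaks. The stretch on chromosome 9 borders the centromere, where near-identical copies make short reads hard to place. How such reads were handled is not given in the sources used here, and 2 of the 10 widest private peaks lie in that stretch.

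The longest domains gave a last comparison. Peaks were joined at the distance customary for super-enhancers, and the 500 domains with the most covered length were kept in each line. They covered 7.58 to 47.9 kb each in NCI-H2887, with a median of 9.97 kb, against medians of 13.2 to 20.5 kb in the 5 lines. Of the 500 domains of NCI-H2887, 186 met no such domain of the 5 lines, against 224 for HCC2450, 132 for SQ-1, 106 for Calu-1, 126 for EBC-1 and 119 for HCC2279 against their own 5. NCI-H2887 was second to HCC2450 in this count. It shared 203 of its domains with EBC-1, 182 with HCC2279, 162 with SQ-1, 153 with Calu-1 and 110 with HCC2450. Among the outside lines it shared 170 with KNS62, 150 with HCC2814, 143 with HCC95, 142 with HARA, 119 with LC-1/SQSF, 92 with LK2 and 55 with NCI-H520 (first library of each). LK2 domains were met by 92 NCI-H2887 domains, against 43 to 56 domains of the 5 lines. NCI-H2887 was also above each of the 5 lines for HARA (142 against 96 to 129), HCC95 (143 against 101 to 141), HCC2814 (150 against 100 to 131) and NCI-H520 (55 against 33 to 48), and below EBC-1 for KNS62 and LC-1/SQSF. The higher count was therefore not particular to LK2. The domains, the clusters, the stretches and the 200 bp comparison were added after the data had been seen.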

How the data were processed

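H3K27ac ChIP-seq peak lists of NCI-H2887 and 12 other squamous lines were read, with Sox2, Brn2 and p63 lists as further readouts. The authors deposited, per sample, the position, name and score of each peak. The names begin with MACS, a peak caller, per the files. The submitters' processing notes name Bowtie2 as a tool and hg19 (GRCh37) as the build, with no version. Caller settings and the use of inputs were not given in the sources used here, and the score scale is not stated, so scores only ranked peaks within a list. No read counts are held, so depth is unknown and intervals cover counting error alone.

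The analysis kept autosomal and X-chromosome peaks, with 1-based positions. Peaks shared if they overlapped by 1 bp. Regions are merged peaks. The Jaccard index, overlaps, bins of 50 kb and Wilson intervals were computed in Python 3.11.15 with numpy, pandas and scipy, and the interval functions were tested on simulated data. LK2 and NCI-H520 values are means of 2 libraries, or counts in either library where presence is counted. The planned gene and promoter units were replaced by bins, because no annotation of the files' build was used. For the same reason no gene names or sequences are given. Named were the 10 bins with the largest excess and shortfall, the 10 widest and top-scoring private peaks (tied scores ranked by width), the 10 largest missing regions and the 10 bins with the most private peaks, with examples of each described. Members and rules were chosen with earlier results of these data known.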

Additional observations from a re-analysis of the deposited data

How the results depend on the processing

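The direction of the peak number depended on joining. NCI-H2887 had 3143 peaks more than the highest of the 5 lines as deposited, and the difference was -7360 regions with peaks joined within 1 kb, -6140 within 3 kb and -3453 at the distance customary for super-enhancers. Its covered length was 14.9 Mb under the lowest of the 5 lines, and the difference was -23.2 Mb at the same long joining distance. The count of NCI-H2887-only peaks, 6956, became 4180 where no peak of the 5 lines could lie within 5 kb, 3681 regions with joining within 1 kb and 3269 within 3 kb, and it was 7539 to 8342 when 1 of the 5 lines was left out. The count of missing regions, 1398, was 1578 to 2194 when 1 line was left out. Bins acetylated in NCI-H2887 and none of the 5 numbered 1371 to 1551, and the converse 1012 to 1315, with 1 line left out. Without scaling to equal totals, bins over numbered 75 and bins under 118, in place of 513 and 63. The share of NCI-H2887-only peaks found in any of the 7 outside lines, 35.2%, was 33.9% for the central 200 bp of each peak and 36.8% with peaks joined within 1 kb, both chosen after seeing the data. Of the values computed under an alternative, 53 lay within 1.5 times the reported value, or inside its interval for a share. A further 10 lay outside these bounds, and 3 changed direction. The 53 include values given above with 1 line left out. Counts and shares cannot change sign, so only differences could change direction. Leaving out a line cannot lower the count of private peaks or either count of bins, and it loosens the definition of a missing region. The alternatives include the same number of top-scoring peaks per list. The alternative promoter window was not run, since no gene starts were used. No paired analysis was possible because no result comes from a test and each of the 6 lines has 1 library. Depth is unknown, so a region without a peak was not listed at the authors' threshold, which does not show that it lacks acetylation.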

Other observations

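LK2_GFP and LK2_DNp63, derivatives of LK2, are the other H3K27ac lists of the series. Their median peak widths were 677 and 864 bp, and 29.7% and 21.4% of neighbouring peaks lay under 500 bp apart. LK2 itself had 731 and 1202 bp in its repeat libraries, with 22.3% and 15.9% of gaps under 500 bp. NCI-H520 had 1329 and 1206 bp. The repeat libraries of LK2 thus differed in width more than those of NCI-H520. The 530 bp of NCI-H2887 was the lowest of the 17 H3K27ac lists, and its 41.9% of short gaps the highest.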
